A study of Mus musculus with 10 samples.

Results

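The growth hormone and insulin-like growth factor (IGF) axis was examined in mouse liver through 10 genes chosen by symbol: Ghr, Socs2, Igf1, Igfals, Igf1r, Igf2r, Igfbp1, Igfbp2, Igfbp3 and Igfbp4. All 10 were found among the 16697 gene entries of the expression table, and all 10 were among the 14017 genes tested, Igf1r only through the libraries of one tumor group. RNA sequencing had been performed on normal liver (NL, n = 4), on liver tumors driven by c-MYC (n = 3) and on liver tumors driven by c-MYC together with FOXO1AAA (n = 3), a form of the transcription factor FOXO1 that AKT cannot inactivate. NL came from wild-type mice. The c-MYC group had received the c-MYC plasmid with the empty pT3-EF1α vector, and the c-MYC/FOXO1AAA group the c-MYC plasmid with MYC-tagged FOXO1AAA in that vector. Both tumor groups shared hydrodynamic tail vein injection, which drives plasmid DNA into hepatocytes, and the Sleeping Beauty transposase that inserts it into their genome. No injection is described for NL, so the injection and the tumor cannot be told apart in comparisons with NL. The labels give the strain as C57BL/6, whereas the methods name FVB/N. Age and sex of the single animals are not given. The methods give as many mice per group as there are libraries. One figure legend of the study adds MCL1, a survival oncogene, to the plasmids of the control mice, while its plasmid list does not. If only one tumor group received MCL1, its effect cannot be told apart from that of FOXO1AAA.

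Growth hormone from the pituitary binds its receptor on hepatocytes, which signals through JAK2 and STAT5 to transcription of Igf1. The liver thereby supplies most circulating IGF1, which travels in a complex with an IGF-binding protein and the acid-labile subunit encoded by Igfals. IGF1 acts on other tissues through the receptor kinase IGF1R, which normal hepatocytes scarcely express. Hepatic Igfbp1 is a classic FOXO1 target and is repressed by insulin.

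The libraries held 13.12 to 20.55 M (mega) reads in listed genes. The values are log2 FPKM (fragments scaled to transcript length and library size) as the authors scaled them, and the scaling factor of the library size was 0.649 to 0.684 in NL, 1.256 to 1.295 in c-MYC and 1.454 to 1.502 in c-MYC/FOXO1AAA. Foxo1, which checks the labels, was at 7.14 FPKM ± 0.532 (SD, n = 4) in NL, at 5.63 ± 0.721 (SD, n = 3) in c-MYC and at 83.1 ± 12.8 (SD, n = 3) in c-MYC/FOXO1AAA. Myc, in contrast, went against the labels of the tumor groups. It was at 4.17 to 22.2 FPKM in NL, 0.561 to 1.05 in c-MYC and 0.876 to 1.11 in c-MYC/FOXO1AAA, and was called lower than NL in both (log2 -3.61, adjusted p = 2.19e-04, and log2 -3.21, adjusted p = 4.33e-04). Whether transcripts of the injected c-MYC plasmid are counted in this entry is not given in the sources used here, and c-MYC names the groups as labelled. All 7 hepatocyte markers had reads in every group, and their summed level ranged from 74913 to 83966 FPKM in NL, from 3672 to 5650 in c-MYC and from 854 to 1546 in c-MYC/FOXO1AAA. The summed level of 7 stellate cell and fibroblast markers was 80.0 to 102 FPKM in NL, 10.7 to 33.5 in c-MYC and 328 to 412 in c-MYC/FOXO1AAA. Dcn alone gave 178 to 312 FPKM of this last sum, and the 7 genes did not move together. Against NL, limma's treat called 5 of them up in that group and Lrat down (log2 -3.93, adjusted p = 9.30e-05), beside 31.2% and 26.6% of all genes tested. To be tested, a gene needed 1 FPKM in 3 libraries, which Lrat met only through NL. Lrat was at 7.21% of its NL mean there, and Reln was not called (log2 0.22). In bulk tissue, fewer cells of a type and less RNA per cell cannot be told apart. All 4 Y-linked genes had reads in every group. Kdm5d was low in c-MYC/FOXO1AAA 2, at 0.0988 FPKM on 20 reads, against 2.33 FPKM in c-MYC/FOXO1AAA 1 and 1.83 in c-MYC/FOXO1AAA 3. With each library rescaled to the same FPKM total, the median over all genes (log2) moved from 0.08 to 1.05 in c-MYC versus NL and from 0.21 to 1.37 in c-MYC/FOXO1AAA versus NL. The share of calls that were higher then moved from 51.0% to 79.9% and from 54.0% to 80.6%. Between the tumor groups the median moved from 0.03 to 0.21, and the share of higher calls was 64.5% instead of 55.5%.

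Most of the axis that normal liver expresses fell in c-MYC tumors, and with FOXO1AAA the expression of Socs2, Igfbp2 and Igf1r rose. A gene was called when limma's treat found a change above 1.5-fold at a Benjamini-Hochberg adjusted p under 0.05 over all genes tested. In c-MYC versus NL, 6 of the 10 members fell (Ghr, Socs2, Igf1, Igfals, Igfbp2 and Igfbp4) and 1 rose (Igf2r), where 23.6% of all genes tested were called lower and 24.5% higher. The median log2 fold change was -2.74 over the members and 0.08 over all genes tested. In c-MYC/FOXO1AAA versus c-MYC, 3 members rose (Igf1r, Socs2 and Igfbp2) and 2 fell (Igfbp4 and Igf2r), against 15.9% of all genes called higher and 12.7% called lower. Igf1r met the filter of 1 FPKM in 3 libraries only in the c-MYC/FOXO1AAA group and could enter this count only as a member that differed. The median log2 fold change there was -0.40 over the members and 0.03 over all genes. In c-MYC/FOXO1AAA versus NL, 5 members were lower and 2 higher, beside 26.6% and 31.2% of all genes, with a median of -2.0 over the members and 0.21 over all genes. This last comparison shares its libraries with the others. The groups did not overlap for 7, 8 and 7 of the 10 members in these comparisons, while 73.9%, 63.4% and 80.1% of all genes tested did not overlap.

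**Figure D1:**
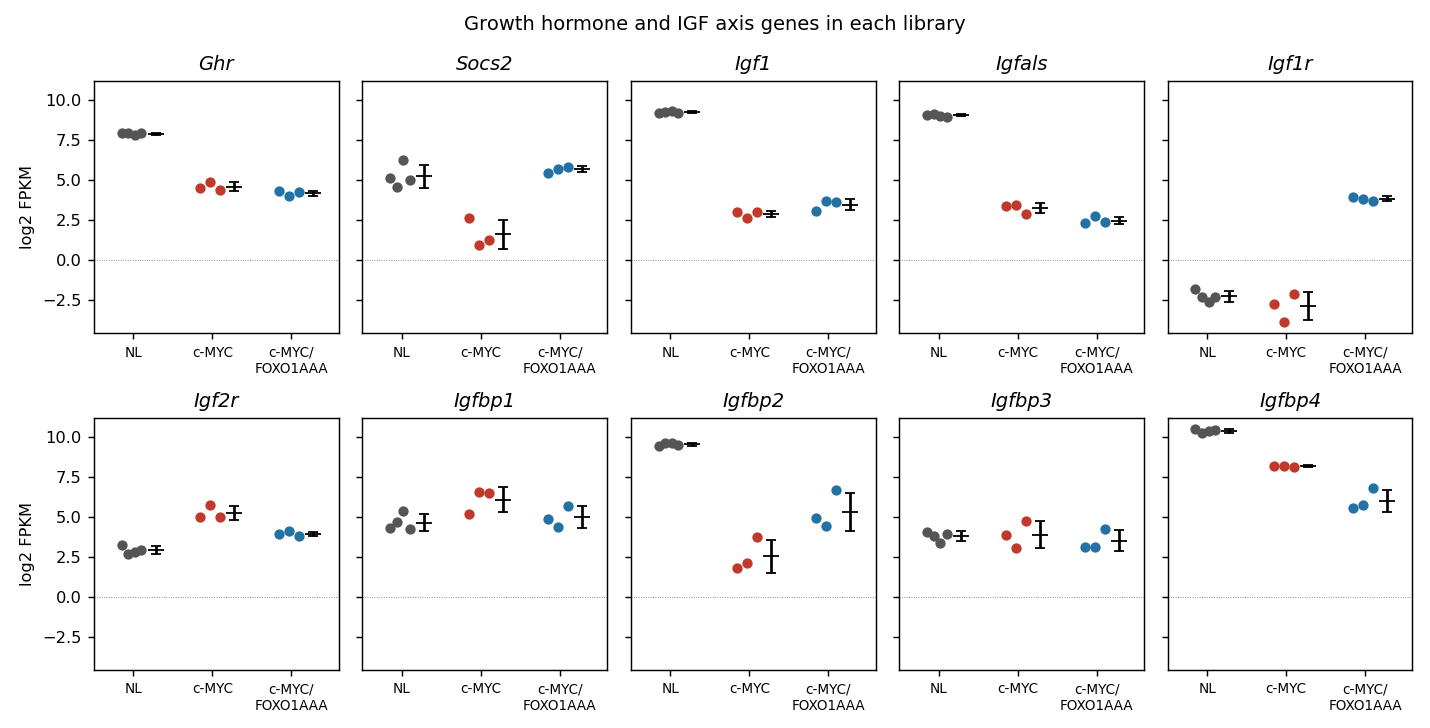
Log2 FPKM of the 10 genes in each library (points) with the group mean and SD (black bars); NL n = 4, c-MYC n = 3, c-MYC/FOXO1AAA n = 3, and the dotted line marks 1 FPKM. Igf1, Igfals and Ghr sit low in both tumor groups, Igf1r is above the dotted line only in the 3 c-MYC/FOXO1AAA libraries, and Socs2 dips in the c-MYC libraries.

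The promoters of the members were searched for short motifs of the transcription factors at issue, since the tumors carry c-MYC and FOXO1AAA and the axis runs through STAT5. RefSeq windows of 300 bases in GRCm38.p6, from 250 bases before to 50 after a start site, were held for 9 of the 10 members, in 13 windows. The motifs were GTAAACA for FOXO factors, CAAAACA of the insulin response element, TTCNNNGAA for STAT factors and CACGTG, the E-box of MYC, on either strand. They are found in 3.65%, 6.28%, 8.30% and 7.15% of all 32851 windows. The 4 stretches below show the 150 bases before the start site in the windows of members with a match there, 5′ to 3′ on the strand of the gene, with the matches in capitals. Igfbp1 holds 1 CAAAACA at position -108 from the start site. Igfals holds 1 STAT motif at -58. Igf2r holds 2 E-boxes, at -48 and -7, where 0.594% of all windows hold 2 or more. Igfbp2 holds 1 E-box at -142. No motif overlapped another in them. These are the Igfbp1 promoter at chr11:7197637-7197786 (+), the Igfals promoter at chr17:24878081-24878230 (+), the Igf2r promoter at chr17:12769707-12769856 (-) and the Igfbp2 promoter at chr1:72824330-72824479 (+).
Igfbp1: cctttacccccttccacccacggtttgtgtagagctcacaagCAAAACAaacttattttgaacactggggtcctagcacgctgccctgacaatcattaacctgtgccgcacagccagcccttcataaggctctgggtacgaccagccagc
Igfals: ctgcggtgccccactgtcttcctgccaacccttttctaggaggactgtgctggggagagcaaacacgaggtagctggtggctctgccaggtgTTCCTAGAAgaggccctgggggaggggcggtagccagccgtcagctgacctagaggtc
Igf2r: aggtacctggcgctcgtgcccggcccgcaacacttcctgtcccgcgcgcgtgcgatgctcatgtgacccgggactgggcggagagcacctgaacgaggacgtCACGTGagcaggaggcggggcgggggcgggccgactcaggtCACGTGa
Igfbp2: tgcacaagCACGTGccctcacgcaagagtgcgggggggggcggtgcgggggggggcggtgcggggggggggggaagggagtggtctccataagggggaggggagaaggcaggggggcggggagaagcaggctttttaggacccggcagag
A match is a description of the letters in the reference and not a measured binding site. The FOXO motif GTAAACA itself was found in 1 of the 13 windows, that of Igfals, at -242, outside the stretch shown. An additional STAT motif lay at -236 in another window of Igfals. None of these letters were found in the windows of Ghr, Igf1, Igf1r, Igfbp3 and Igfbp4.

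Ghr, which encodes the growth hormone receptor (chr15:3317760-3583492, minus strand, GRCm38), varied by only 1.09-fold among the NL libraries. Its level was 242, 244, 226 and 246 FPKM in the NL libraries, 22.5, 30.2 and 21 in c-MYC and 20.1, 16.3 and 19.0 in c-MYC/FOXO1AAA. Every tumor library was below every NL library, and the c-MYC/FOXO1AAA libraries lay just below those of c-MYC. The mean of c-MYC was 10.3% of that of NL (log2 -3.30 ± 0.13 SE, adjusted p = 2.07e-08) and the mean of c-MYC/FOXO1AAA was 7.71% (log2 -3.70 ± 0.13 SE, adjusted p = 5.21e-09). Between the tumor groups the log2 difference was -0.40, with a 95% interval from -0.71 to -0.09, and Ghr was not called (adjusted p = 1.0). Without the 1.5-fold threshold it was called there (adjusted p = 0.0307).

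Igf1, the hormone itself (chr10:87858265-87937042, plus strand), was among the most abundant members of normal liver. It was measured at 584, 617, 647 and 598 FPKM in NL, at 8.05, 6.35 and 7.98 in c-MYC and at 8.59, 12.9 and 12.5 in c-MYC/FOXO1AAA. These tumor values rest on 198 to 245 reads per c-MYC library and 351 to 642 per c-MYC/FOXO1AAA library. All c-MYC/FOXO1AAA libraries were above all c-MYC libraries, but far below NL. The c-MYC mean was 1.22% and the c-MYC/FOXO1AAA mean 1.86% of the NL mean, with log2 fold changes of -6.36 ± 0.15 (SE, adjusted p = 4.47e-10) and -5.77 ± 0.15 (SE, adjusted p = 7.91e-10). The log2 difference between the tumor groups was 0.59 (95% interval 0.24 to 0.94), which did not pass the test for a change above 1.5-fold (adjusted p = 0.979) and passed without that threshold (adjusted p = 0.00821).

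Igfals encodes the liver-made acid-labile subunit that keeps IGF1 in the circulating complex (chr17:24865997-24882010, plus strand). Its level was 529, 572, 527 and 507 FPKM in NL, 10.7, 10.7 and 7.53 in c-MYC and 4.94, 6.66 and 5.23 in c-MYC/FOXO1AAA. The 3 groups did not overlap, in the order NL, c-MYC, c-MYC/FOXO1AAA. Igfals fell by 5.81 ± 0.15 (SE) on the log2 scale in c-MYC versus NL (adjusted p = 7.38e-10) and by 6.58 ± 0.15 (SE) in c-MYC/FOXO1AAA versus NL (adjusted p = 4.22e-10). Between the tumor groups the log2 difference was -0.78 (95% interval -1.12 to -0.43) and was not called (adjusted p = 0.325). It was called when c-MYC 3 was left out (adjusted p = 0.0466) and without the 1.5-fold threshold (adjusted p = 0.00147). Ghr, Igf1 and Igfals all fell from NL to both tumor groups, as did most hepatocyte markers, of which 6 of 7 were lower in c-MYC versus NL and 7 of 7 in c-MYC/FOXO1AAA versus NL. The part of hepatocyte loss in these falls was not tested.

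Socs2, a feedback inhibitor that growth hormone induces through STAT5 and that restrains signaling at the receptor (chr10:95385362-95417180, minus strand), followed another course. It was at 34.8, 23.7, 76.5 and 32.6 FPKM in NL, at 6.22, 1.92 and 2.42 in c-MYC and at 44.7, 53.0 and 57.7 in c-MYC/FOXO1AAA. All c-MYC libraries lay below all others, while the c-MYC/FOXO1AAA libraries lay within the range of NL. Socs2 fell in c-MYC versus NL, with a log2 fold change of -3.63 ± 0.44 (SE, adjusted p = 9.36e-05), and rose in c-MYC/FOXO1AAA versus c-MYC by 4.07 ± 0.47 (SE, adjusted p = 1.09e-04), which is 16.8-fold. The log2 difference between c-MYC/FOXO1AAA and NL was 0.44 (95% interval -0.53 to 1.42, adjusted p = 0.839). That difference was called after rescaling to the same FPKM total (log2 1.54, adjusted p = 0.0352).

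**Figure D2:**
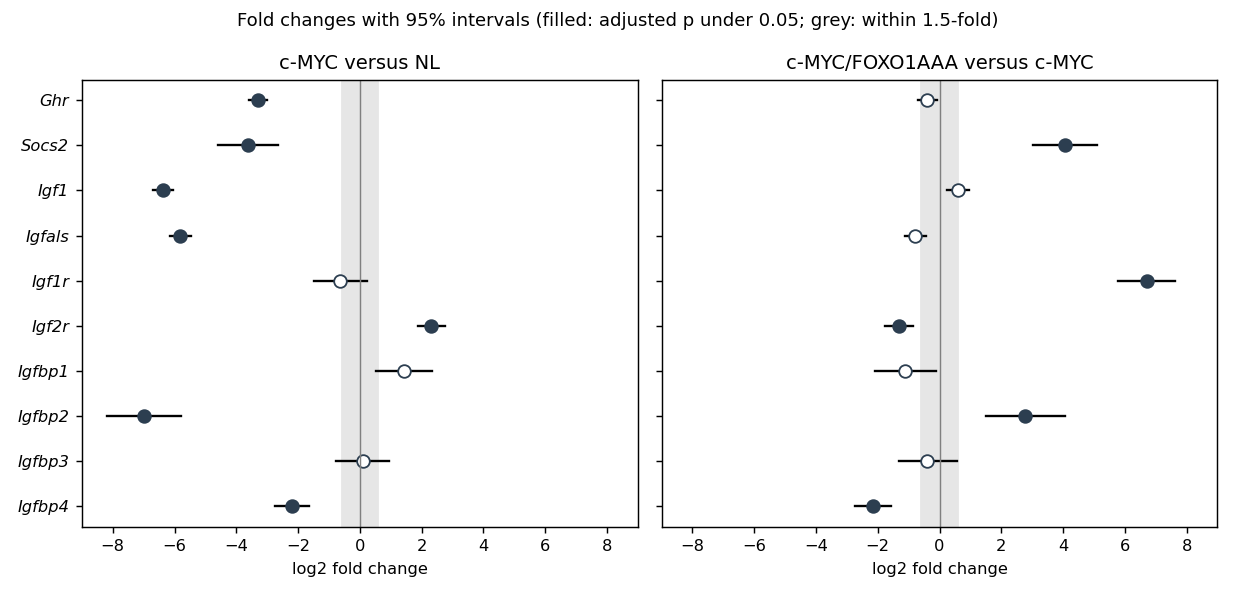
Log2 fold change of the 10 genes in c-MYC versus NL (left) and in c-MYC/FOXO1AAA versus c-MYC (right), with 95% intervals from limma; filled points passed the test at an adjusted p under 0.05 and the grey band marks changes within 1.5-fold. Ghr, Igf1 and Igfals lie far left in the left panel and near the band in the right one, whereas Socs2 and Igfbp2 are left of it in the first and right of it in the second.

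Of 15 listed genes for other components of growth hormone receptor signaling, 14 were tested. In c-MYC versus NL, 3 fell and none rose by limma's treat, beside 23.6% and 24.5% of all genes tested. Between the tumor groups, 2 rose and 3 fell with FOXO1AAA, beside 15.9% and 12.7%, and 6 fell and none rose in c-MYC/FOXO1AAA versus NL, beside 26.6% and 31.2%. Their median log2 fold changes were -0.60, -0.12 and -0.66, against 0.08, 0.03 and 0.21 over all genes. Prlr, the prolactin receptor, had the largest change, from 45.8 FPKM ± 4.37 (SD, n = 4) in NL to 0.129 ± 0.0991 (SD, n = 3) in c-MYC (log2 -8.75, adjusted p = 4.07e-08) and 0.402 ± 0.0666 (SD, n = 3) in c-MYC/FOXO1AAA. It rose between the tumor groups by 1.92 on the log2 scale (adjusted p = 0.0268), on only 1 to 13 and 20 to 44 reads per library, and lost that call under 10 of 23 alternatives. Prlr met the filter of 1 FPKM in 3 libraries only through NL, where it had to be high to be tested. Its falls relative to NL follow largely from that. Cish, a feedback inhibitor related to Socs2, fell in c-MYC/FOXO1AAA versus c-MYC from 4.4 FPKM ± 0.482 (SD, n = 3) to 0.844 ± 0.327 (SD, n = 3), a log2 fold change of -2.45 (adjusted p = 0.00711), and so went the other way from Socs2. Socs3, a cytokine-induced inhibitor, fell in c-MYC versus NL (log2 -1.85, adjusted p = 2.82e-04), though not with the same FPKM total (log2 -0.92, adjusted p = 0.127). It rose in c-MYC/FOXO1AAA versus c-MYC (log2 1.39, adjusted p = 0.0123), a call lost without c-MYC/FOXO1AAA 2 (adjusted p = 0.0511), with a pseudocount of 1 (0.0696), with quantile normalization (0.147) and with a 2-fold threshold (0.259). Stat3 fell in c-MYC versus NL (log2 -1.24, adjusted p = 0.00357), though not with the same FPKM total (log2 -0.31), and the phosphatase gene Ptpn6 fell in c-MYC/FOXO1AAA versus NL (log2 -1.79, adjusted p = 3.47e-06), again not with the same FPKM total (log2 -0.69, adjusted p = 0.273). Prlr (log2 -6.84, adjusted p = 1.75e-07) and Cish (log2 -3.67, adjusted p = 7.15e-05) fell there too. Jak2 and Stat5b, the kinase and a transducer of the receptor, were not called in any of the 3 comparisons, with log2 fold changes of -0.61, -0.24 and -0.85 for Jak2 and 0.23, -0.13 and 0.10 for Stat5b. The Jak2 groups nevertheless did not overlap in any of them. Stat5a, the other STAT5 gene, fell in c-MYC/FOXO1AAA versus c-MYC (log2 -1.20, adjusted p = 0.0312) and versus NL (log2 -1.13, adjusted p = 0.0190). In c-MYC versus NL it was not called (log2 0.06).

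The male rhythm of growth hormone secretion keeps a set of genes high in mouse liver. All 8 listed genes of this kind fell in c-MYC versus NL, where 23.6% of all genes fell, with a median log2 fold change of -7.89. With FOXO1AAA, 6 of the 8 rose relative to c-MYC and none fell, beside 15.9% and 12.7% of all genes, with a median of 3.55. Relative to NL the whole list of 8 was lower in c-MYC/FOXO1AAA, as were 26.6% of all genes, with a median of -6.27. These genes are expressed by hepatocytes, and of the 7 hepatocyte markers 6 were lower in the first comparison, 6 in the second and 7 in the third. The part of hepatocyte loss in the list was not tested. Hsd3b5, a hydroxysteroid dehydrogenase gene, had 246 FPKM ± 33.8 (SD, n = 4) in NL and 0 reads in all 3 c-MYC libraries, at least 2354-fold lower when 3 reads per library are allowed, and returned to 29 to 92 reads in c-MYC/FOXO1AAA. Slco1a1, an organic anion transporter gene, fell from 316 FPKM ± 16.4 (SD, n = 4) to 0.503 ± 0.390 (SD, n = 3) in c-MYC (log2 -9.61, adjusted p = 4.29e-08). Cyp7b1, an oxysterol hydroxylase gene, fell by 9.56 on the log2 scale (adjusted p = 7.52e-08) and rose by 4.03 in c-MYC/FOXO1AAA versus c-MYC (adjusted p = 2.08e-04). Mup20, a urinary pheromone protein gene, rose in c-MYC/FOXO1AAA versus c-MYC by 4.38 on the log2 scale (adjusted p = 0.00112), from 3.10 FPKM ± 3.94 (SD, n = 3) to 35.9 ± 7.57 (SD, n = 3). Hsd3b5 (log2 -7.29, adjusted p = 1.43e-09), Nudt7 (log2 -6.59, adjusted p = 2.18e-10) and Cyp4a12a (log2 -6.42, adjusted p = 4.78e-09) stood low in c-MYC/FOXO1AAA versus NL, and of these Nudt7 and Cyp4a12a were not called between the tumor groups.

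Of 8 genes known to be higher in female liver, 6 were in the table and 3 were tested. Hao2 and Cux2 would not have met the filter of 1 FPKM in 3 libraries without c-MYC, nor Cyp2b9 without NL. Each had to be high there to be tested, and the directions below follow largely from that. In c-MYC versus NL, 2 rose and 1 fell, beside 24.5% and 23.6% of all genes tested. In c-MYC/FOXO1AAA versus c-MYC 2 fell and none rose, beside 12.7% and 15.9%. In c-MYC/FOXO1AAA versus NL 2 fell and none rose, beside 26.6% and 31.2%. Cux2, a repressor that is typical of female liver, rose in c-MYC versus NL from 1.09 FPKM ± 0.576 (SD, n = 4) to 7.34 ± 1.13 (SD, n = 3), a log2 fold change of 2.93 (adjusted p = 6.79e-04). It fell to 0.175 ± 0.0632 (SD, n = 3) in c-MYC/FOXO1AAA (log2 -5.44 versus c-MYC, adjusted p = 1.18e-05). Hao2, a peroxisomal oxidase gene, rose in c-MYC versus NL by 4.75 (log2, adjusted p = 0.00133) and fell by 4.88 in c-MYC/FOXO1AAA versus c-MYC (adjusted p = 0.00292). Cyp2b9 went the other way and fell by 4.38 in c-MYC versus NL (adjusted p = 1.05e-05). Relative to NL, Cux2 and Cyp2b9 were lower in c-MYC/FOXO1AAA, with log2 fold changes of -2.51 (adjusted p = 0.00193) and -5.04 (adjusted p = 2.03e-06). The call of Cux2 was lost with a pseudocount of 1 (adjusted p = 0.277) and with the same FPKM total (adjusted p = 0.0662). Summed Y-linked expression was 74.1 to 76.6 FPKM in NL, 52.9 to 72.6 in c-MYC and 35.8 to 55.5 in c-MYC/FOXO1AAA, and the part of a mixture of sexes in these changes was not tested.

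**Figure D3:**
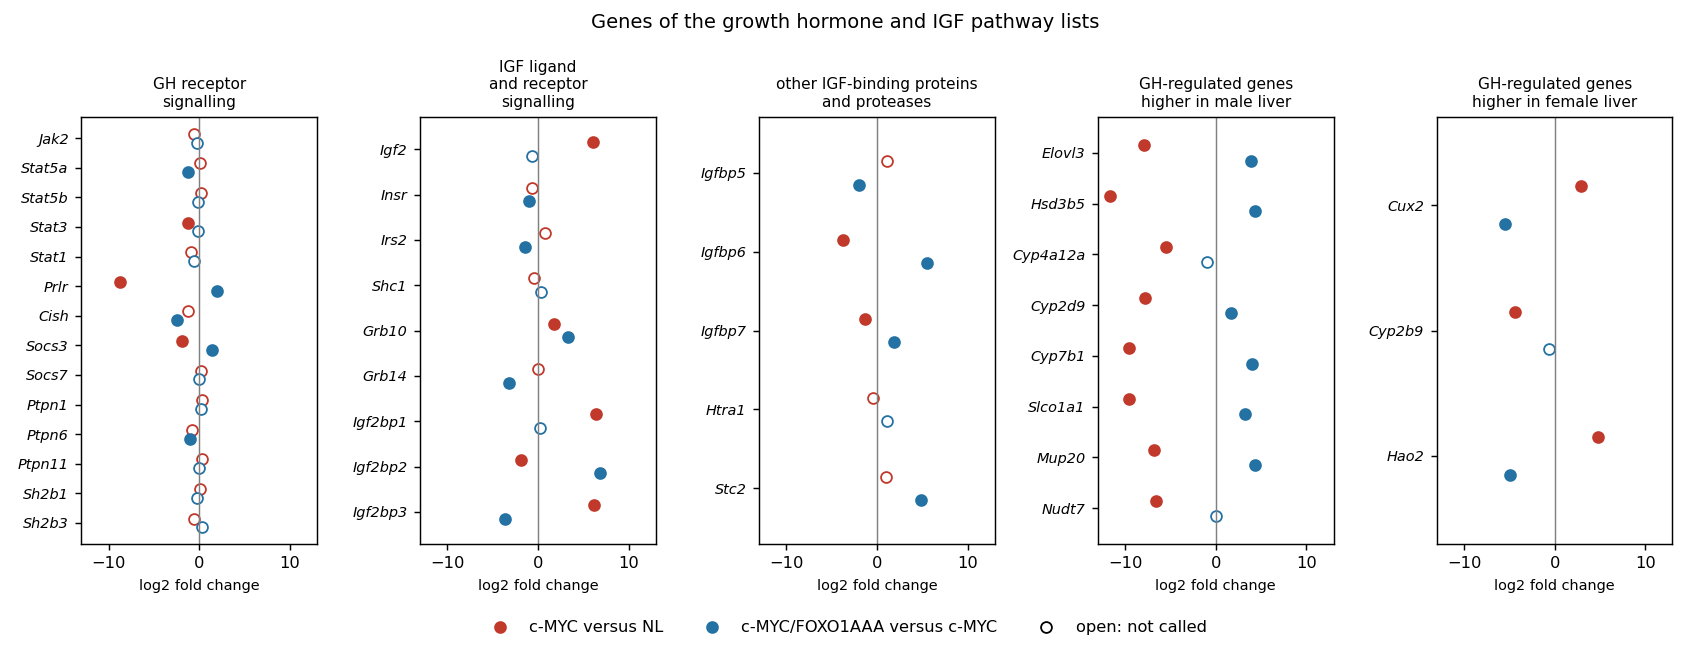
Log2 fold change of every tested gene of the 5 pathway lists in c-MYC versus NL (red) and c-MYC/FOXO1AAA versus c-MYC (blue); open circles were not called. The 8 genes higher in male liver are all left of 0 in red, and 6 of them are filled and right of 0 in blue, while most genes of receptor signaling stay near 0.

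The binding proteins diverged. Igfbp1 (chr11:7197782-7202546, plus strand), whose product is a short-term inhibitor of IGF action, was at 19.9, 25.3, 41.0 and 19.4 FPKM in NL, at 37.0, 94.3 and 89.1 in c-MYC and at 28.9, 20.4 and 52.4 in c-MYC/FOXO1AAA. All 3 groups overlapped, since NL 3 and c-MYC/FOXO1AAA 3 both exceeded c-MYC 1. Its log2 fold change amounted to 1.43 ± 0.41 (SE) in c-MYC versus NL (adjusted p = 0.0683) and -1.11 ± 0.44 (SE) in c-MYC/FOXO1AAA versus c-MYC (adjusted p = 0.342), and Igfbp1 was called in neither. The 95% interval of the second difference ran from -2.09 to -0.13. The first of these was called without NL 3 (adjusted p = 0.0313) and without c-MYC 1 (adjusted p = 0.0122). The log2 difference of c-MYC/FOXO1AAA from NL was 0.32 (95% interval -0.60 to 1.23, adjusted p = 0.957).

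Igfbp2 (chr1:72824503-72852474, plus strand), a binding protein that the adult liver secretes, had the largest fitted fall of the members in c-MYC versus NL. It stood at 685, 783, 769 and 727 FPKM in NL, at 3.47, 4.4 and 13.3 in c-MYC and at 30.2, 21.2 and 101 in c-MYC/FOXO1AAA. The groups did not overlap, and within each tumor group the replicate numbered 3 was the highest. The c-MYC mean was 0.952% of the NL mean (log2 -6.98 ± 0.54 SE, adjusted p = 2.23e-06) and the c-MYC/FOXO1AAA mean 6.86% (log2 -4.20 ± 0.54 SE, adjusted p = 8.88e-05). Igfbp2 rose in c-MYC/FOXO1AAA versus c-MYC by 2.77 ± 0.58 (SE) on the log2 scale (adjusted p = 0.00813), with adjusted p from 0.00137 to 0.0369 over 23 alternatives. Of the 7 hepatocyte markers, 6 were lower in c-MYC/FOXO1AAA versus c-MYC, beside 12.7% of all genes tested. The part of cell content in the rise of Igfbp2 was not tested.

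Igfbp4 (chr11:99041244-99054392, plus strand), an inhibitory binding protein and the most abundant member in NL, declined in steps. Its level was 1432, 1197, 1304 and 1353 FPKM in NL, 296, 294 and 281 in c-MYC and 46.1, 53.6 and 112 in c-MYC/FOXO1AAA. The 3 groups were fully separate, and the c-MYC libraries differed by only 1.06-fold between the highest and the lowest. Igfbp4 fell by 2.18 ± 0.25 (SE) on the log2 scale in c-MYC versus NL (adjusted p = 1.34e-04) and by a further 2.16 ± 0.26 (SE) in c-MYC/FOXO1AAA versus c-MYC (adjusted p = 4.41e-04). The c-MYC/FOXO1AAA mean was 5.34% of the NL mean.

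Igfbp3 (chr11:7206086-7213923, minus strand), the main carrier of IGF1 in serum, was not called in any comparison. It was at 16.8, 14.3, 10.4 and 15.2 FPKM in NL, at 15.0, 8.27 and 26.6 in c-MYC and at 8.82, 8.69 and 19.3 in c-MYC/FOXO1AAA. All 3 groups overlapped. Its log2 differences were 0.09 (95% interval -0.78 to 0.96) in c-MYC versus NL, -0.30 (-1.17 to 0.58) in c-MYC/FOXO1AAA versus NL and -0.39 (-1.32 to 0.55) between the tumor groups. In liver this gene is known mainly from non-parenchymal cells.

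The share of each binding protein in the summed FPKM of Igfbp1 to Igfbp4 does not depend on how libraries were scaled. The 4 shares are parts of the same sum, so a fall in any of them raises the others and their tests are not independent. A share can rise while the level of its gene falls. The sum was 2155, 2019, 2124 and 2114 FPKM in NL, 352, 401 and 410 in c-MYC and 114, 104 and 285 in c-MYC/FOXO1AAA. In the order NL, c-MYC, c-MYC/FOXO1AAA, Igfbp2 made up 35.3% ± 2.93 (SD, n = 4), 1.77% ± 1.27 (SD, n = 3) and 27.5% ± 7.55 (SD, n = 3) of it. Igfbp1 made up 1.26% ± 0.475 (SD, n = 4), 18.6% ± 7.04 (SD, n = 3) and 21.1% ± 3.73 (SD, n = 3). Igfbp4 and Igfbp2 together thus held nearly all of the pool in NL, and Igfbp1 was a visible component of it in both tumor groups. Igfbp4 took 62.8% ± 3.13 (SD, n = 4), 75.4% ± 8.05 (SD, n = 3) and 43.8% ± 6.76 (SD, n = 3). Igfbp3 took 0.675% ± 0.127 (SD, n = 4), 4.27% ± 2.22 (SD, n = 3) and 7.62% ± 0.807 (SD, n = 3). In c-MYC versus NL, all 4 shares separated the groups completely (2-sided exact permutation test, p = 0.0571 and adjusted p = 0.0980 for each over 12 tests), which is the smallest p that 4 against 3 libraries allow. Between the tumor groups, the shares of Igfbp2, Igfbp3 and Igfbp4 did not overlap (exact permutation p = 0.10, the smallest that 3 against 3 allow, adjusted p = 0.120), and that of Igfbp1 did (exact p = 0.80, adjusted p = 0.80). Relative to NL, 3 shares of c-MYC/FOXO1AAA separated the groups (exact permutation p = 0.0571, adjusted p = 0.0980) and that of Igfbp2 did not (exact p = 0.171, adjusted p = 0.187).

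The balance of binding proteins to Igf1 was compared next. The sum of Igfbp1 to Igfbp4 was 3.69, 3.27, 3.28 and 3.54 times the FPKM of Igf1 in NL, 43.7, 63.2 and 51.4 times in c-MYC and 13.3, 8.04 and 22.7 times in c-MYC/FOXO1AAA. The groups did not overlap, and the c-MYC/FOXO1AAA libraries lay between the others. The mean log2 ratio was higher in c-MYC than in NL by 3.92 and higher in c-MYC/FOXO1AAA than in NL by 1.97 (exact permutation p = 0.0571, adjusted p = 0.0857 over 3 tests, for each). From c-MYC to c-MYC/FOXO1AAA it changed by -1.96 (exact permutation p = 0.10, adjusted p = 0.10). Igf2, the other IGF ligand, was left out of this ratio. It was at 1.49 to 28.3 FPKM in NL, 395 to 639 in c-MYC and 280 to 294 in c-MYC/FOXO1AAA. The ratio thus does not describe the balance of binding proteins to both ligands, which was not tested. The level of the ratio depends on transcript length: the authors' FPKM of Igf1 used 1673 bp, which is 23.7% of its longest annotated transcript. With the longest annotated transcripts the ratio was 13.8 to 15.5 in NL, 186 to 269 in c-MYC and 34.0 to 96.3 in c-MYC/FOXO1AAA, and the log2 differences between groups stayed the same, since only the length of Igf1 changed.

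**Figure D4:**
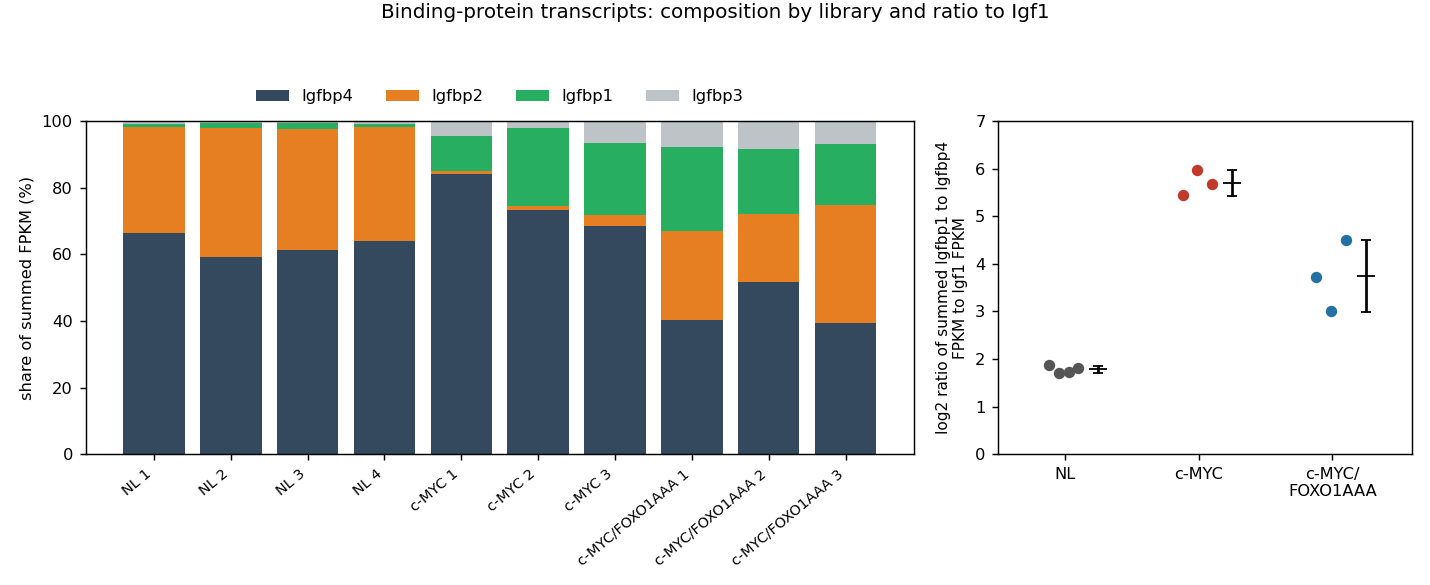
Left, share of Igfbp1, Igfbp2, Igfbp3 and Igfbp4 in their summed FPKM (%) in each of the 10 libraries; right, log2 ratio of that sum to Igf1 FPKM per library (points) with the group mean and SD (black bars). The Igfbp2 share nearly vanishes in the 3 c-MYC libraries and is between 20.5% and 35.4% in c-MYC/FOXO1AAA, and the ratio is highest in c-MYC.

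The remaining IGF-binding proteins and proteases came as a list of 9, of which 7 were in the table and 5 tested. From NL to c-MYC, 2 fell and none rose by limma's treat, beside 23.6% and 24.5% of all genes. In c-MYC/FOXO1AAA versus c-MYC 3 rose and 1 fell, beside 15.9% and 12.7%, and in c-MYC/FOXO1AAA versus NL 2 were higher and none lower, beside 31.2% and 26.6%. These 5 genes had median log2 fold changes of -0.40, 1.85 and 0.66. Igfbp6, a binding protein with a preference for IGF2, was at 2.52 FPKM ± 1.41 (SD, n = 4) in NL and fell to 0.171 ± 0.0750 (SD, n = 3) in c-MYC (log2 -3.78, adjusted p = 7.86e-05) and rose to 7.46 ± 1.77 (SD, n = 3) in c-MYC/FOXO1AAA (log2 5.51 versus c-MYC, adjusted p = 1.10e-05). Igfbp7, a related secreted protein, fell in c-MYC versus NL (log2 -1.34, adjusted p = 0.00759), a call lost with the same FPKM total (adjusted p = 0.922), and rose in c-MYC/FOXO1AAA versus c-MYC (log2 1.85, adjusted p = 8.56e-04). Stc2, an inhibitor of the protease that cleaves IGFBP4, rose to 6.31 FPKM ± 1.36 (SD, n = 3) in c-MYC/FOXO1AAA from 0.449 ± 0.585 (SD, n = 3) in c-MYC (log2 4.82, adjusted p = 0.00147). Stc2 would not have met the filter of 1 FPKM in 3 libraries without c-MYC/FOXO1AAA, so it could be tested only by being high there. Relative to NL, Stc2 (log2 5.87, adjusted p = 8.29e-05) and Igfbp6 (log2 1.73, adjusted p = 0.0289) were higher in c-MYC/FOXO1AAA, the latter not without NL 2, NL 3, c-MYC/FOXO1AAA 2 or c-MYC/FOXO1AAA 3 (adjusted p 0.0665 to 0.0877). Igfbp5 fell from c-MYC to c-MYC/FOXO1AAA by 2.01 on the log2 scale (adjusted p = 0.0124), but not without c-MYC 2 (adjusted p = 0.0526) or c-MYC/FOXO1AAA 1 (adjusted p = 0.0504). Of the 7 stellate cell and fibroblast markers, 4 were higher in c-MYC/FOXO1AAA versus c-MYC while none was lower, and the part of stromal cells in the rises of Igfbp6 and Igfbp7 was not tested.

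Of the members, Igf1r differed most between the tumor groups. Igf1r, the signaling receptor (chr7:67952827-68233668, plus strand), was at 0.288, 0.206, 0.163 and 0.206 FPKM in NL and at 0.154, 0.0709 and 0.235 in c-MYC, on 17 to 35 and 13 to 47 reads per library. In c-MYC/FOXO1AAA it was at 15.8, 14.5 and 12.8 FPKM, on 2862 to 4939 reads. NL and c-MYC overlapped, and all c-MYC/FOXO1AAA libraries stood far above both. Only the c-MYC/FOXO1AAA libraries took Igf1r past the filter of 1 FPKM in 3 libraries, so a gene with these levels could enter the test only by differing there. Igf1r rose in c-MYC/FOXO1AAA versus c-MYC by 6.71 ± 0.42 (SE) on the log2 scale (adjusted p = 7.39e-07), or 105-fold, and it was higher than NL by 6.08 ± 0.39 (SE, adjusted p = 2.41e-07). Between c-MYC and NL the log2 difference was -0.63 (95% interval -1.49 to 0.24, adjusted p = 0.693). Of the 7 stellate cell and fibroblast markers, 4 were higher and none lower in c-MYC/FOXO1AAA versus c-MYC, among them Des, at a mean of 0.916 FPKM in c-MYC and 62.7 in c-MYC/FOXO1AAA, and Pdgfrb, at means of 2.47 and 14.0 FPKM. The part of these and other cells in the rise of Igf1r was not tested.

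Igf2r, the mannose-6-phosphate receptor that clears IGF2 (chr17:12682406-12769664, minus strand), took the opposite course between tumor groups. It was at 9.53, 6.41, 7.07 and 7.67 FPKM in NL, at 32.1, 52.7 and 32.3 in c-MYC and at 15.0, 17.1 and 13.9 in c-MYC/FOXO1AAA. The groups did not overlap, with c-MYC highest and NL lowest. Igf2r rose in c-MYC versus NL by 2.32 ± 0.19 (SE) on the log2 scale (adjusted p = 9.95e-06) and fell in c-MYC/FOXO1AAA versus c-MYC by 1.31 ± 0.20 (SE, adjusted p = 0.0107). It was higher in c-MYC/FOXO1AAA than in NL by 1.01 ± 0.19 (SE, adjusted p = 0.0424), a call that was lost when any of NL 2, NL 3, NL 4, c-MYC/FOXO1AAA 1 and c-MYC/FOXO1AAA 2 was left out (adjusted p from 0.0651 to 0.126).

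Of 10 genes for the IGF2 ligand and for signaling below the receptors, 9 were tested. From NL to c-MYC 4 rose and 1 fell, beside 24.5% and 23.6% of all genes. The fall was that of Igf2bp2 (log2 -1.92, adjusted p = 0.0211), on only 4 to 12 reads per NL library and 0 to 6 per c-MYC library. In c-MYC/FOXO1AAA versus c-MYC 2 rose and 4 fell, beside 15.9% and 12.7%, and in c-MYC/FOXO1AAA versus NL 4 were higher and 2 lower, beside 31.2% and 26.6%. The medians of the list were 0.78, -0.71 and 2.54 on the log2 scale. Igf2bp2 passed the filter only through the c-MYC/FOXO1AAA libraries, where it was high, and Igf2bp1 and Igf2bp3 only through tumor libraries, so these genes had to differ there from the groups under the filter. Igf2, the fetal growth factor, rose from 1.49 to 28.3 FPKM in NL to 395 to 639 in c-MYC (log2 6.04 ± 0.76 SE, adjusted p = 8.38e-05) and was at 280 to 294 in c-MYC/FOXO1AAA (log2 5.33 versus NL, adjusted p = 1.65e-04). By FPKM, Igf2 stood above Igf1 in every tumor library, and Igf1 above Igf2 in every NL library. Igf2bp1 and Igf2bp3, fetal RNA-binding proteins that bind Igf2 mRNA, rose in c-MYC versus NL by 6.37 (adjusted p = 2.63e-04) and 6.21 (adjusted p = 2.43e-04) on the log2 scale. Igf2bp3 fell in c-MYC/FOXO1AAA versus c-MYC (log2 -3.66, adjusted p = 0.0226), a call lost with the replicate block (adjusted p = 0.0582) and without c-MYC 2, c-MYC/FOXO1AAA 1 or c-MYC/FOXO1AAA 2 (adjusted p 0.0542 to 0.0896). Igf2bp2 rose in that comparison from 0.0796 FPKM ± 0.0569 (SD, n = 3) to 7.69 ± 1.26 (SD, n = 3), a log2 fold change of 6.81 (adjusted p = 2.74e-06). Grb10, an adaptor that binds the insulin and IGF1 receptors and dampens their signal, rose in c-MYC/FOXO1AAA versus c-MYC by 3.34 on the log2 scale (adjusted p = 0.00115) and varied from 18.2 to 77.1 FPKM among the 3 libraries. Grb14, an adaptor of the same family, went the other way there (log2 -3.24, adjusted p = 3.39e-05), from a mean of 37.4 FPKM to 4.41. The remaining falls were those of Irs2 (log2 -1.47, adjusted p = 0.0102) and Insr (log2 -1.02, adjusted p = 0.0220). Igf2bp1 and Grb10 exceeded NL in c-MYC/FOXO1AAA by 6.64 (adjusted p = 1.43e-04) and 5.14 (adjusted p = 8.05e-06) on the log2 scale.

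In normal liver the members ranked, by mean FPKM, as Igfbp4 (1321), Igfbp2 (741), Igf1 (612), Igfals (534), Ghr (240), Socs2 (41.9), Igfbp1 (26.4), Igfbp3 (14.2), Igf2r (7.67) and Igf1r (0.216). The ranges of Socs2 and Igfbp1 overlapped, and those of the other neighbors did not. The FPKM of Igfals used 500 bp, which is 19.0% of its longest annotated transcript, that of Socs2 used 948 bp (22.3%) and that of Igf1 used 1673 bp (23.7%), so their places depend on the transcript length.

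Over the 10 libraries, the genes whose log2 FPKM, centered on their mean, ran closest to Igf1 were Cyp2c67, BC049987 and Gm44992, with root mean square differences of 0.22, 0.27 and 0.27. Those closest to Ghr were Aph1c (0.16), Ttpa (0.19) and Coq10b (0.22). Igfbp1 had no neighbor as near, with Trim2 (0.37), Gm10259 (0.43) and Spryd3 (0.45) ranking first. Ttpa, the tocopherol transfer protein, was at a mean of 105 FPKM in NL, 9.34 in c-MYC and 6.70 in c-MYC/FOXO1AAA.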

How the data were processed

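RNA sequencing of 10 mouse liver libraries was analysed from 1 table. Groups and replicate numbers were taken from the sample titles. The 10 members and the gene lists were chosen with earlier results of these data known. The table holds log2 FPKM as deposited: the authors counted reads by gene, analysed the counts with edgeR and wrote log2 FPKM after adding a prior count, 2 on average and in proportion to library size. FastQC 0.11.7 and GRCm38 are named in the submitters' processing notes, and the aligner is not given in the sources used here. Of 17069 rows, 372 carry no symbol or values and were left out.

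Whole reads were recovered by trying lengths up to 130000 bp for each gene. A single length gave whole reads, within 1e-05 reads plus a rounding term, in all libraries for 99.94% of genes, and 97.7% of the genes found in GENCODE M21 had an annotated length. Depth was 13.12 to 20.55 M (mega) reads, so counting error is small beside the spread between libraries except for genes with few reads. Every pair of replicates differed by more than sampling noise (chi-square per degree of freedom 8.52 to 32.6), and all were counted as separate.

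Genes that reached 1 FPKM in 3 or more libraries were tested with limma 3.58.1 (R 4.3.3) on the deposited values, with 1 mean per group, trend and robust estimation. The test, treat, is 2-sided for a change above 1.5-fold, with Benjamini-Hochberg adjustment over all genes. The prior count makes fold changes of genes with few reads too small. Shares and ratios were compared by exact permutation (SciPy 1.17.1). The bound for a gene with 0 reads uses 3 reads per library and covers counting error only. Scripts were tested on simulated data. All members were named. Of each pathway list, up to 3 called genes with the largest change per comparison were named, and for Igf1, Ghr and Igfbp1 the 3 closest genes. Jak2, Stat5a, Stat5b, Grb14, Irs2 and Insr were given beside them, as were the levels of Foxo1 and Myc. The marker lists (hepatocyte, endothelial, Kupffer cell and macrophage, stellate cell and fibroblast, biliary, lymphocyte and leukocyte, Y-linked) were given too. Jak2, Stat5a, Stat5b, Grb14, Irs2, Insr, Myc, Igfbp7 between the tumor groups and the marker genes named singly were chosen after their values were seen. Alternatives changed the pseudocount (0.1 or 1), filter, scaling, threshold, spread estimation, samples, replicate block and the model (voom on the recovered reads). Promoters are RefSeq windows of GRCm38.p6, and gene positions are those of GENCODE M21. The reference is C57BL/6J and may differ from the mice.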

Additional observations from a re-analysis of the deposited data

How the results depend on the processing

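Of 30 combinations of member and comparison, 19 were called, and 17 of these calls held in the same direction under every one of the 23 alternatives run, or 22 for Igf1r, whose mean level is under 5 FPKM and which that filter removes. The exceptions were Igf2r in c-MYC/FOXO1AAA versus c-MYC, not called with a 2-fold threshold (adjusted p = 0.323), and Igf2r in c-MYC/FOXO1AAA versus NL. Of the 11 not called, 6 were called under no alternative. In c-MYC versus NL, 2 members instead of 1 were higher with the same FPKM total, with quantile normalization and without a fold threshold, and 1 to 2 with a library left out, the added member being Igfbp1. In c-MYC/FOXO1AAA versus c-MYC, 4 members instead of 2 were lower without a fold threshold and 1 with a 2-fold threshold. In c-MYC/FOXO1AAA versus NL, 1 member instead of 2 was higher with a pseudocount of 1, the same median, a 2-fold threshold, trend and robust estimation off, or the replicate block, where Igf2r was lost, and with a mean FPKM of at least 5, where Igf1r was not tested. Leaving out a library gave 1 to 2.

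Differences of members that were not called changed sign for 5 combinations of member and comparison. With the same FPKM total, Igf1r in c-MYC versus NL had a log2 difference of 0.30 and Igfbp3 in c-MYC/FOXO1AAA versus NL of 0.80. With 1 library left out, Igfbp3 ranged from -0.33 to 0.51 in c-MYC versus NL, negative without c-MYC 3 and without NL 3 (-0.05), and from -0.81 to 0.03 in c-MYC/FOXO1AAA versus c-MYC, positive without c-MYC 3. Igfbp1 ranged from -0.05 to 0.63 in c-MYC/FOXO1AAA versus NL, negative without c-MYC/FOXO1AAA 3.

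With Igfbp5, Igfbp6 and Igfbp7 added to the pool, the differences in share for c-MYC/FOXO1AAA versus c-MYC became -5.14 percentage points for Igfbp1, 14.5 for Igfbp2, 0.355 for Igfbp3 and -44.0 for Igfbp4. For c-MYC/FOXO1AAA versus NL they became 10.5, -17.8, 3.54 and -36.4. The difference in log2 ratio became -1.24 and 2.78. The Igfbp1 share in c-MYC/FOXO1AAA versus c-MYC ranged from -1.49 to 4.99 percentage points with a library left out, the lowest without c-MYC 1. The use of the longest transcripts was chosen after seeing the data.

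Same-numbered libraries did not deviate together (correlations from -0.04 to 0.03), so the numbers were not taken as pairs. The replicate block moved the calls over all genes from 6740 to 6407, from 4016 to 3852 and from 8099 to 7810. The count of reads limits Igf1r in NL and c-MYC.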

Other observations

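RNA of marker genes for other liver cell types differed between groups, and the markers of a list did not always move together. Of 7 endothelial markers, 6 were tested, and 4 were lower and none higher in c-MYC versus NL, with a summed level of 50.0 to 66.2 FPKM in NL, 9.87 to 17.9 in c-MYC and 26.7 to 41.3 in c-MYC/FOXO1AAA. Within that list Cdh5 was at 564% of its NL mean in c-MYC/FOXO1AAA, whereas Stab2 was at 6.83% and Clec4g at 1.70%. Stab2, Clec4g and Oit3 met the filter of 1 FPKM in 3 libraries only through NL. They had to be high there to be tested, and their falls follow largely from that. Of 6 Kupffer cell and macrophage markers, 3 were lower in c-MYC versus NL and 4 in c-MYC/FOXO1AAA versus NL, and none was higher in either. Cd5l went the other way in c-MYC, at 195% of its NL mean without overlap, but was not called (adjusted p = 0.220). Adgre1 was at 120% of its NL mean there. Marco, among those lower in c-MYC, would not have met the filter of 1 FPKM in 3 libraries without NL. The biliary markers summed to 2.36 to 4.63 FPKM in NL, 15.4 to 30.8 in c-MYC and 4.72 to 11.9 in c-MYC/FOXO1AAA, and 2 of the 3 tested were higher in c-MYC versus NL. These were Epcam and Krt7, at 1216% and 1554% of their NL means in c-MYC, while Sox9 was at 8.12%, without overlap, and Krt19 at 29.2%. Krt7 would not have met the filter of 1 FPKM in 3 libraries without c-MYC, so it had to be high there to be tested. The 2 leukocyte markers in the table summed to 1.32 to 2.13 FPKM in NL, 2.0 to 2.19 in c-MYC and 8.29 to 12.5 in c-MYC/FOXO1AAA, and 1 of them was higher in c-MYC/FOXO1AAA versus c-MYC. That was Cd79a, a B cell gene, at a mean of 0.217 FPKM in c-MYC and 9.52 in c-MYC/FOXO1AAA. Only the c-MYC/FOXO1AAA libraries took Cd79a past the filter of 1 FPKM in 3 libraries, so it could be tested only by being high there. Ptprc, the general leukocyte marker, was at 1.86 FPKM in c-MYC and 1.04 in c-MYC/FOXO1AAA, without overlap, and was not called (adjusted p = 0.391). Of the 4 Y-linked genes, 2 were lower in c-MYC/FOXO1AAA versus NL, 1 was lower in c-MYC versus NL and none was called between the tumor groups.

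Among the 4 NL libraries, none of 15 measures (the 10 members, the 4 shares and the ratio) held a library past Dixon's 95% critical value. Ghr came nearest, with a gap of NL 3 below the others of 0.817 of the range.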
